A study of Mus musculus with 16 samples.

Results

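The genes described here encode the core machinery of inflammasomes, pyroptosis and necroptosis: the sensor Nlrp3, the adaptor Pycard, the inflammatory caspases Casp1 and Casp4, the pore-forming protein Gsdmd, the cytokines Il1b and Il18, and the death-deciding proteins Casp8, Ripk3 and Mlkl. They were taken by gene symbol. All 10 were found among the 27288 genes of the mouse liver RNA-sequencing table, and all 10 passed the filter for testing, a mean of at least 10 normalised reads over the libraries. Nlrp3 passed it narrowly, at a mean of 10.4.

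The study sequenced RNA from frozen livers of C57BL/6 mice aged 8 to 10 weeks, with 4 libraries in each of 4 groups. The groups were KO mice in the Gao-Binge alcohol model, KO mice on the control regimen, WT mice in the Gao-Binge model and WT mice on the control regimen. KO stands for the label L-Dnm1l KO, described in the protocols as liver-specific loss of DRP1, the GTPase that divides mitochondria. WT mice are called paired in the labels, and neither the floxed allele, the Cre line nor its promoter is given. The Gao-Binge model feeds an ethanol diet and ends with a single large dose of ethanol, and its control is called control diet here. The labels do not say that each library came from its own mouse, and p-values here cover only the variation among these samples, which may be technical.

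An inflammasome forms when a sensor such as NLRP3 recruits the adaptor ASC, the product of Pycard, which in turn gathers caspase-1. Caspase-1 matures interleukin-1 beta and interleukin-18 and cuts gasdermin D, whose freed end perforates the plasma membrane and kills the cell by pyroptosis; mouse caspase-11, encoded by Casp4, senses bacterial lipopolysaccharide in the cytosol and cuts gasdermin D directly. In necroptosis RIPK3 phosphorylates MLKL, which then ruptures the membrane, and caspase-8 restrains that route while starting apoptosis. In the liver, macrophages called Kupffer cells are a main site of inflammasome activity, which has been studied in alcohol-related liver disease. Transcript levels do not measure cleavage, phosphorylation or secretion, which are what set these proteins to work.

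The genes lie on 8 chromosomes of the build GRCm38, the build named in the submitters' processing notes. Casp1 (ENSMUSG00000025888, chr9:5298517-5307265, plus strand) and Casp4 (ENSMUSG00000033538, chr9:5308828-5336783, plus strand) stand head to tail, 1562 bases apart, and Il18 (ENSMUSG00000039217, chr9:50554827-50581840, plus strand) is on the same chromosome. Mlkl (ENSMUSG00000012519) is at chr8:111311797-111338177 on the minus strand, Gsdmd (ENSMUSG00000022575) at chr15:75862327-75867408 on the plus strand and Nlrp3 (ENSMUSG00000032691) at chr11:59541568-59566956 on the plus strand. Pycard (ENSMUSG00000030793) is at chr7:127989708-127993867 on the minus strand and Il1b (ENSMUSG00000027398) at chr2:129364570-129371139 on the minus strand. Casp8 (ENSMUSG00000026029) is at chr1:58795374-58847503 on the plus strand and Ripk3 (ENSMUSG00000022221) at chr14:55784995-55788865 on the minus strand.

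The promoter windows of the genes that were higher in KO-labelled livers on control diet are shown because these genes moved in the same direction, and they let a reader compare the DNA just before their starts. Each runs from 250 bases before to 50 bases after a RefSeq transcript start, on the strand of the gene in GRCm38.p6, and capitals mark a motif match. Gsdmd has no entry in that table. The windows are Mlkl at chr8:111338156-111338455 on the minus strand, Casp1 at chr9:5298267-5298566 on the plus strand, Casp4 at chr9:5308599-5308898 on the plus strand and Pycard at chr7:127993818-127994117 on the minus strand.
Mlkl: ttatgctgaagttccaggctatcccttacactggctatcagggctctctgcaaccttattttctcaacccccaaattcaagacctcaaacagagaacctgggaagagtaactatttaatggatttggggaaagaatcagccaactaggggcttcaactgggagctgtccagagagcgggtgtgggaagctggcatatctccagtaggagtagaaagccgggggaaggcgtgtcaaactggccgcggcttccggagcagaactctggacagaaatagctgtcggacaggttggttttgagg
Casp1: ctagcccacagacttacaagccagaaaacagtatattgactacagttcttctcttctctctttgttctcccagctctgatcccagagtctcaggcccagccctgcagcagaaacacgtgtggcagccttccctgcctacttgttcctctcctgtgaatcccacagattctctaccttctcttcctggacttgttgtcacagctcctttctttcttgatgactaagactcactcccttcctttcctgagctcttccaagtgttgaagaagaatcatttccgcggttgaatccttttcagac
Casp4: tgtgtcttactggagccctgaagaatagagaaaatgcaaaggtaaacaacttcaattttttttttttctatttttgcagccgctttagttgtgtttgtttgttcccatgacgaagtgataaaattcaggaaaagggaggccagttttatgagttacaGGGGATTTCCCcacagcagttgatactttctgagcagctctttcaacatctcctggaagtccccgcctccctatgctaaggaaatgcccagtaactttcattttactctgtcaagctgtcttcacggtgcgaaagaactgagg
Pycard: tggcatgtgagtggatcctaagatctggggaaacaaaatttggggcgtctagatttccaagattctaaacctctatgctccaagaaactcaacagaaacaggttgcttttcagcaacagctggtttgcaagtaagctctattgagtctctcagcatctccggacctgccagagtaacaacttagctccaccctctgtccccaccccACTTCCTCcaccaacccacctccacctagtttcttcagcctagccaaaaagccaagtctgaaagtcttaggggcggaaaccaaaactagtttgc

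The RefSeq table held 11 windows for 9 of the 10 genes, and 4 short motifs were searched in them on both strands. The interferon-stimulated response element, spelled GAAA, any 2 bases and GAAA again, and the interferon-gamma activated site, written TTCNNNGAA, matched in 0 of the 11 windows, against 3.44% and 8.3% of all 32851 promoter windows of this length. The NF-kB motif matched in 3 of the 11, against 4.51% of all windows. Those were both overlapping Casp4 windows, where a pair of overlapping matches makes up the capitals above, and 1 of the 2 Nlrp3 windows. A PU.1 motif, written GAGGAAGT, matched in the Pycard window, against 3.2% of all windows. A match is a description of the letters and not a binding site, and a window with no match says nothing about the factor.

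Per kilobase of the principal transcript, which allows genes to be compared within a group, the 10 transcripts spanned a wide range. In KO-labelled livers on ethanol the mean level per kilobase was 252 ± 5.9 normalised reads for Gsdmd, 161 ± 16.5 for Casp8, 133 ± 22.2 for Mlkl and 111 ± 22.8 for Il18 (SD, n = 4 each). In WT livers on ethanol Gsdmd had 159.6 ± 20.04 and Casp8 157.6 ± 44.9 reads per kilobase, followed by Il18 at 112 ± 16.5 and Mlkl at 38.1 ± 7.27 (SD, n = 4 each). Gsdmd, Casp8, Il18 and Mlkl were the most abundant transcripts of the set in every group, while the inflammasome's sensor had the lowest mean. The adaptor Pycard came next above it, a place that depends on the transcript length used.
Casp4, Casp1 and Il1b lay in between, at 26.5, 26.1 and 19.6 reads per kilobase in KO-labelled livers on ethanol and at 16.6, 14.7 and 6.98 in WT livers on ethanol. At the foot of the order in KO-labelled livers on ethanol were Ripk3 at 8.49, Pycard at 3.64 and Nlrp3 at 3.24 reads per kilobase. The ranges of Gsdmd and Casp8 overlapped in WT livers on ethanol, and those of Casp8 and Mlkl in KO-labelled livers on ethanol. Casp4 and Casp1 overlapped in all 4 groups. The Pycard transcript used for its length, 3800 bases, is longer than the RefSeq locus, so its level per length is uncertain.

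**Figure D1:**
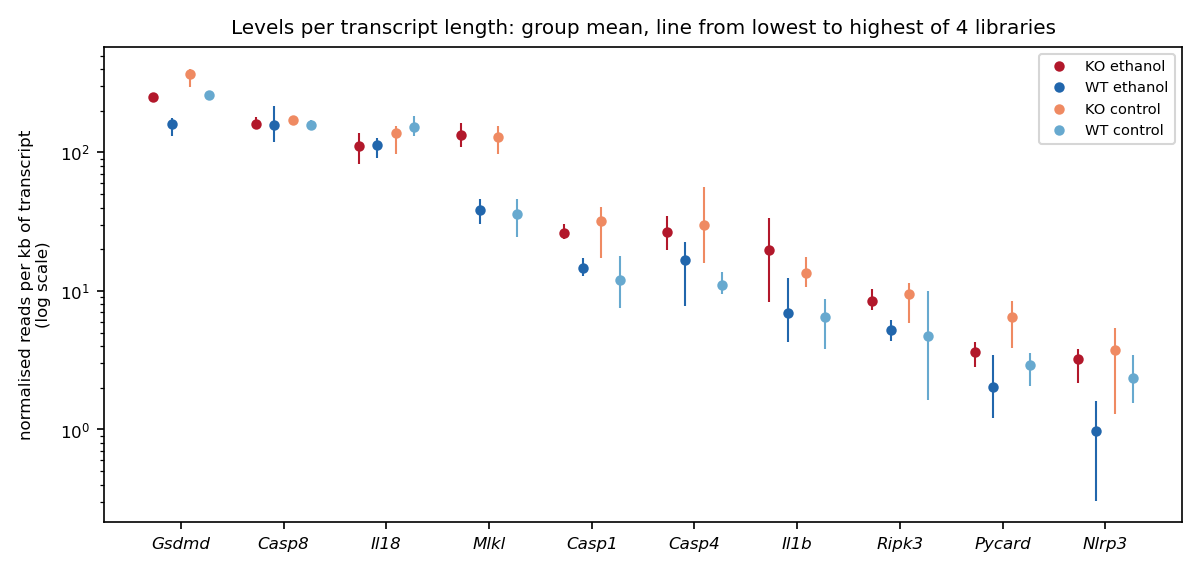
Mean normalised reads per kilobase of principal transcript (log axis) for the 10 genes in the 4 groups, with lines from the lowest to the highest of 4 libraries. Gsdmd has the highest mean in all groups, 252 in KO-labelled livers on ethanol, and the Mlkl means of 133 in KO-labelled and 38.1 in WT livers on ethanol stand apart. In WT livers on ethanol the ranges of Gsdmd and Casp8 overlap.

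Libraries held 11425136 to 13864862 reads assigned to genes, and 13256 genes were tested. The targeted gene Dnm1l gave no check of the genotype labels. It had 776, 949, 730.1 and 756 normalised reads in KO-labelled livers on ethanol, against 778, 771, 725 and 697 in WT livers on ethanol (log2 difference 0.11 ± 0.11 SE, limma adjusted p = 0.590). On control diet it had 666, 654, 539 and 709 reads in KO-labelled livers and 707, 581, 686 and 677 in WT livers (log2 difference -0.05 ± 0.11 SE, limma adjusted p = 0.825). The deleted part of the gene is not given, and gene totals give no value for a single exon. The livers carried the transcripts of hepatocytes, whose 10 markers summed to between 1039940 and 1762450 normalised reads per library. On ethanol the sums ran from 1039940 to 1553820 in KO-labelled livers and from 1375050 to 1720570 in WT livers. On control diet they ran from 1201070 to 1239100 in KO-labelled livers and from 1480690 to 1762450 in WT livers, without overlap. KO ethanol library 1 stood apart with 7350 reads of pancreas markers, against at most 11.4 in any other library, and KO ethanol library 4 held 6158 reads of red blood cell markers and 161 of fat markers, the highest sums of either. Calls on ethanol were therefore also made without KO ethanol libraries 1 and 4, and the value without them stands beside each call printed here that this ended.

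Part of this set was higher in KO-labelled livers on each diet, and no member was called lower. On ethanol 4 of the 10 genes were called higher in KO-labelled livers than in WT livers and 0 lower, namely Mlkl, Nlrp3, Il1b and Gsdmd, where 6.13% of all tested genes were called higher and 3.75% lower. On control diet 5 of 10 were called higher and 0 lower, namely Mlkl, Casp1, Casp4, Pycard and Gsdmd, where 6.40% of all genes were called higher and 5.24% lower. Mlkl and Gsdmd were the 2 genes called on both diets. The main fit does not pair libraries by replicate number. With that number as a block in the ethanol groups, 2 of the 10 were called on ethanol, Mlkl and Gsdmd. The median log2 difference of the 10 genes was 0.76 on ethanol and 1.03 on control diet, while the median over all tested genes was -0.02 and -0.01. On either diet, 9 of the 10 genes had a positive difference, with Il18 the exception.
Called means an adjusted p under 0.05 in limma on log2(value + 1), with the Benjamini-Hochberg adjustment over all 13256 genes, a scale that understates the change of genes with few reads. All KO libraries lay above all WT libraries for 5 genes on ethanol (Nlrp3, Casp1, Gsdmd, Ripk3 and Mlkl), where 8.36% of all genes did so. The same held for 5 genes on control diet (Pycard, Casp4, Gsdmd, Il1b and Mlkl), where 8.68% of all genes did so.

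**Figure D2:**
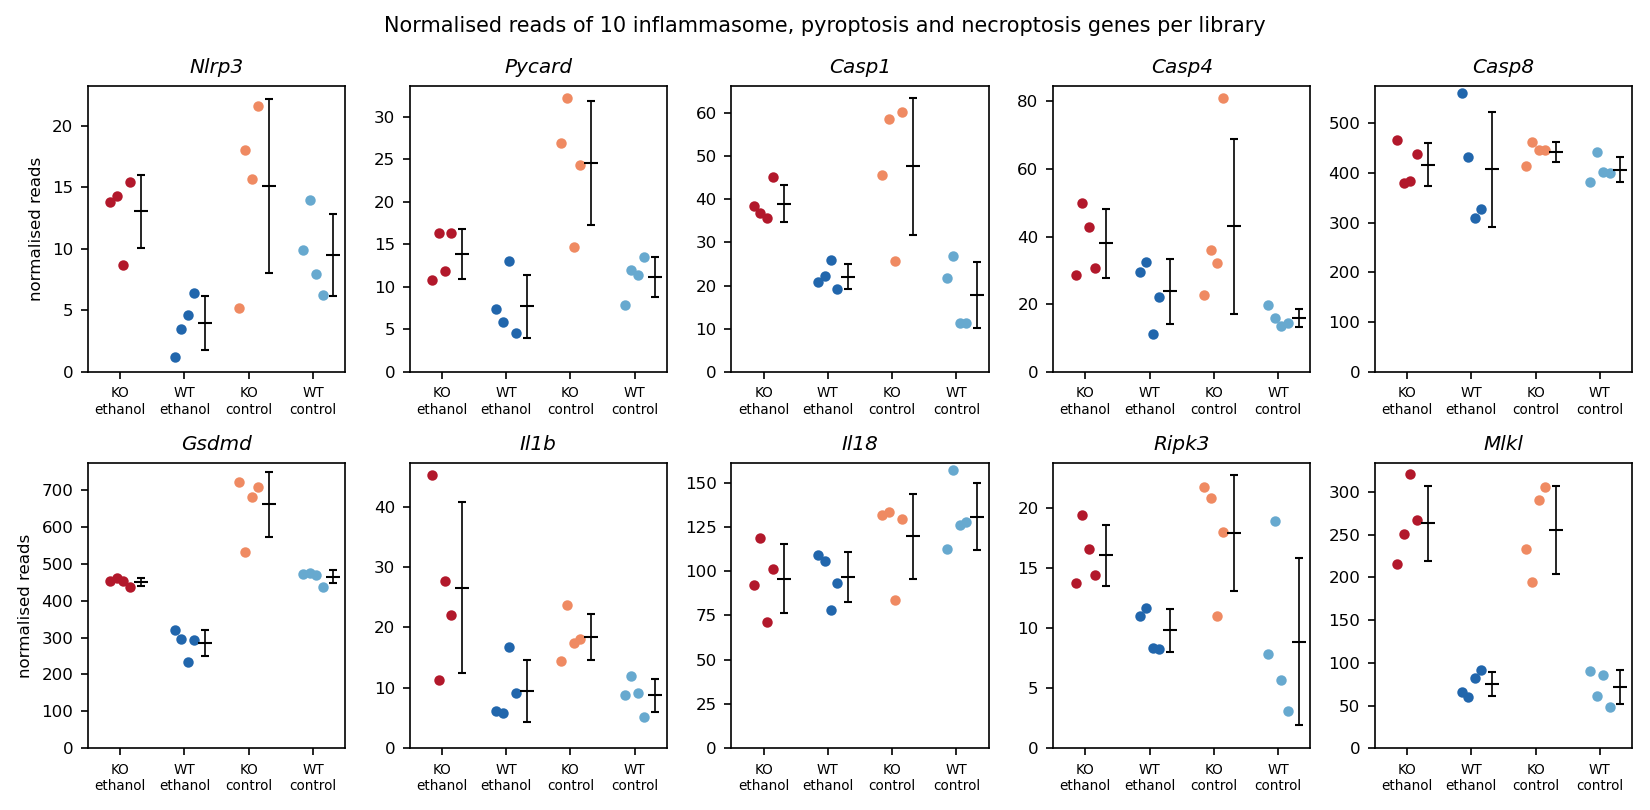
Normalised reads of the 10 genes in each of the 16 libraries (points, 1 panel per gene), with the group mean and bars of 1 SD beside them. The 8 Mlkl values of KO-labelled livers lie between 194 and 321, all above the 8 WT values, of which the highest is 91.6.

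Mlkl, the executioner of necroptosis, had the largest called genotype difference of the set on both diets. It had 215, 250.3, 321 and 268 normalised reads in the KO-labelled livers on ethanol, against 66.3, 60.6, 82.7 and 91.6 in the WT livers on ethanol. On control diet it had 233, 194, 290.0 and 305 reads in KO-labelled livers, against 90.7, 60.6, 86.2 and 48.8 in WT livers. Every KO library exceeded every WT library on both diets, and the lowest KO value was 194 reads beside a highest WT value of 91.6. Mlkl was 3.48-fold higher on ethanol (log2 1.80 ± 0.21 SE, limma adjusted p = 1.63e-05) and 3.59-fold higher on control diet (log2 1.84 ± 0.21 SE, limma adjusted p = 1.51e-05). These calls held in all 22 and 18 alternative settings, in which the log2 difference stayed between 1.70 and 1.92 on ethanol and between 1.68 and 1.97 on control diet.

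Ripk3, the kinase that activates MLKL, was a low transcript and was not called in any comparison. It had 13.8, 19.4, 16.6 and 14.4 reads in KO-labelled livers on ethanol, against 11.1, 11.7, 8.36 and 8.25 in WT livers on ethanol. Control-diet values were 21.8, 20.8, 11 and 18 reads in KO-labelled livers, against 7.89, 18.9, 5.67 and 3.11 in WT livers. The ethanol groups did not overlap, but the control groups did, because WT control library 2 lay among the KO values. The fold was 1.58 on ethanol, with a 95% interval from 0.901 to 2.77 (limma adjusted p = 0.310), and 2.20 on control diet, with an interval from 1.26 to 3.86 (limma adjusted p = 0.0632). The control-diet difference passed without WT control library 2 (adjusted p = 0.00614), without KO control library 3 (adjusted p = 0.0457) and with the replicate number as a block (adjusted p = 0.0468).

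Casp8, the initiator caspase that restrains necroptosis, was abundant and close between the genotypes. It had 466, 379, 383 and 439 reads in KO-labelled livers on ethanol, against 561, 431, 308 and 328 in WT livers on ethanol. On control diet it had 414, 463, 446 and 447 reads in KO-labelled livers, against 382, 442, 403 and 401 in WT livers. The groups overlapped on both diets, and WT ethanol libraries 1 and 2 were higher than 3 and 4. The fold was 1.05 on ethanol, with a 95% interval from 0.847 to 1.30, and 1.09 on control diet, with an interval from 0.878 to 1.35, and limma called neither (adjusted p = 0.822 and 0.657).

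Gsdmd, which encodes the pore former of pyroptosis, was called for both genotype and ethanol. It had 454, 461, 452 and 436 reads in KO-labelled livers on ethanol, against 319, 296, 235 and 293 in WT livers on ethanol. KO-labelled livers on control diet had 722, 532, 681 and 709 reads of the gene, against 473, 475, 471 and 438 in WT livers. The genotypes did not overlap on either diet, and within each genotype every ethanol library lay below every control library. The values of KO-labelled livers on ethanol fell in the range of 436 to 461, close to the 438 to 475 of WT livers on control diet. Gsdmd was 1.58-fold higher in KO-labelled livers on ethanol (log2 0.66 ± 0.11 SE, limma adjusted p = 0.000641) and 1.41-fold higher on control diet (log2 0.50 ± 0.11 SE, limma adjusted p = 0.00681). All 4 Gsdmd calls held in every alternative setting run, including those without KO ethanol libraries 1 and 4.

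Nlrp3, the inflammasome sensor, was called higher in KO-labelled livers on ethanol, from few reads. It had 13.8, 14.3, 8.71 and 15.4 normalised reads in KO-labelled livers on ethanol, against 1.23, 3.50, 4.64 and 6.42 in WT livers on ethanol. Control-diet values were 5.18, 18, 15.7 and 21.6 reads in KO-labelled livers, against 9.86, 13.9, 7.94 and 6.23 in WT livers. The ethanol groups did not overlap, whereas KO control library 1 lay below all WT control libraries. The fold was 3.04 on ethanol (log2 1.61 ± 0.44 SE, limma adjusted p = 0.0278) and 1.43 on control diet, with a 95% interval from 0.753 to 2.73 (limma adjusted p = 0.502). Nlrp3 counts ran from 1 to 24 whole reads per library. The ethanol call was lost without any 1 of KO ethanol libraries 1, 2 and 4 (adjusted p = 0.0566, 0.061 and 0.0762) or WT ethanol libraries 1 and 2 (adjusted p = 0.0955 and 0.0578), with the replicate number as a block in the ethanol groups (adjusted p = 0.0671), and without KO ethanol libraries 1 and 4 (adjusted p = 0.198). A fit of the ethanol groups alone, without a block, lost it too (adjusted p = 0.0521).

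Pycard, encoding the adaptor ASC, was called higher in KO-labelled livers on control diet. It had 10.8, 16.3, 11.9 and 16.4 reads in KO-labelled livers on ethanol, against 7.37, 5.83, 13 and 4.58 in WT livers on ethanol. KO-labelled livers on control diet had 26.9, 32.2, 14.7 and 24.3 reads of the gene, against 7.89, 11.9, 11.3 and 13.5 in WT livers. The control groups did not overlap, and the ethanol groups overlapped through WT ethanol library 3. The fold was 1.79 on ethanol, with a 95% interval from 1.12 to 2.86 (limma adjusted p = 0.111), and 2.06 on control diet (log2 1.04 ± 0.32 SE, limma adjusted p = 0.0440). The control-diet call was lost without KO control libraries 1, 2 or 4 (adjusted p = 0.0934, 0.121 and 0.0873) or any 1 WT control library (adjusted p = 0.0661 to 0.122), and with the replicate number as a block (adjusted p = 0.0696). On ethanol Pycard passed without WT ethanol library 3 (adjusted p = 0.0311). Pycard shares 485 of its exon bases with Gm45205 on the other strand, which had at most 3.06 reads in any library.

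Casp1, the caspase that inflammasomes activate, was higher in KO-labelled livers on control diet. It had 38.4, 36.8, 35.6 and 45.2 reads in KO-labelled livers on ethanol, against 20.9, 22.1, 26.0 and 19.2 in WT livers on ethanol. Control-diet values were 45.6, 58.7, 25.8 and 60.3 reads in KO-labelled livers, against 21.7, 26.8, 11.3 and 11.4 in WT livers. The ethanol groups did not overlap. The control groups overlapped, because KO control library 3 lay just under WT control library 2. Casp1 was 2.62-fold higher on control diet (log2 1.39 ± 0.29 SE, limma adjusted p = 0.00539), a call that held in all 17 alternatives. On ethanol the fold was 1.74 with a 95% interval from 1.13 to 2.66, not called (limma adjusted p = 0.0953), although it passed in a fit of the ethanol groups alone (adjusted p = 0.0275).

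Casp4, encoding the lipopolysaccharide sensor caspase-11 and the neighbour of Casp1, was also called on control diet. It had 28.5, 50.1, 42.8 and 30.8 reads in KO-labelled livers on ethanol, against 29.5, 32.6, 11.1 and 22.0 in WT livers on ethanol. KO-labelled livers on control diet had 22.8, 36.0, 32.2 and 81.0 reads of the gene, against 19.7, 15.9, 13.6 and 14.5 in WT livers. The ethanol groups overlapped and the control groups did not, and KO control library 4 was the highest of all 16. The fold was 1.65 on ethanol, with a 95% interval from 0.975 to 2.78 (limma adjusted p = 0.228), and 2.34 on control diet (log2 1.23 ± 0.36 SE, limma adjusted p = 0.0343). The call was lost without KO control libraries 2 or 4 (adjusted p = 0.0595 and 0.105) or WT control libraries 2, 3 or 4 (adjusted p = 0.0624, 0.0785 and 0.0831).

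Il1b, the transcript of the interleukin-1 beta precursor, was called higher in KO-labelled livers on ethanol. It had 45.2, 11.2, 27.7 and 22.1 reads in KO-labelled livers on ethanol, against 6.14, 5.83, 16.7 and 9.16 in WT livers on ethanol. Control-diet values were 14.5, 23.7, 17.5 and 18 reads in KO-labelled livers, against 8.87, 11.9, 9.07 and 5.19 in WT livers. The ethanol groups overlapped, since KO library 2 lay below WT library 3, while the control groups did not. The fold was 2.56 on ethanol (log2 1.35 ± 0.39 SE, limma adjusted p = 0.0368) and 2.03 on control diet, with a 95% interval from 1.14 to 3.6 (limma adjusted p = 0.104). The ethanol call was lost in 13 of 21 alternatives, including the fit of the ethanol groups alone (adjusted p = 0.102). Among them were leaving out KO ethanol library 1, 3 or 4 (adjusted p = 0.112, 0.0998 and 0.072) or WT ethanol library 1, 2 or 4 (adjusted p = 0.108, 0.103 and 0.0579), both KO ethanol libraries 1 and 4 (adjusted p = 0.305), and the replicate number as a block (adjusted p = 0.0527).

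Il18, the other cytokine that caspase-1 matures, was the only gene of the set with a negative difference between the genotypes on both diets. It had 92.5, 119, 71.3 and 101 reads in KO-labelled livers on ethanol, against 109, 106, 78.0 and 93.5 in WT livers on ethanol. KO-labelled livers on control diet had 132, 134, 83.8 and 129.7 reads of the gene, against 112, 157, 126 and 128 in WT livers. The groups overlapped on both diets. The fold was 0.983 on ethanol, with a 95% interval from 0.753 to 1.28, and 0.906 on control diet, with an interval from 0.694 to 1.18, and limma called neither (adjusted p = 0.958 and 0.682).

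**Figure D3:**
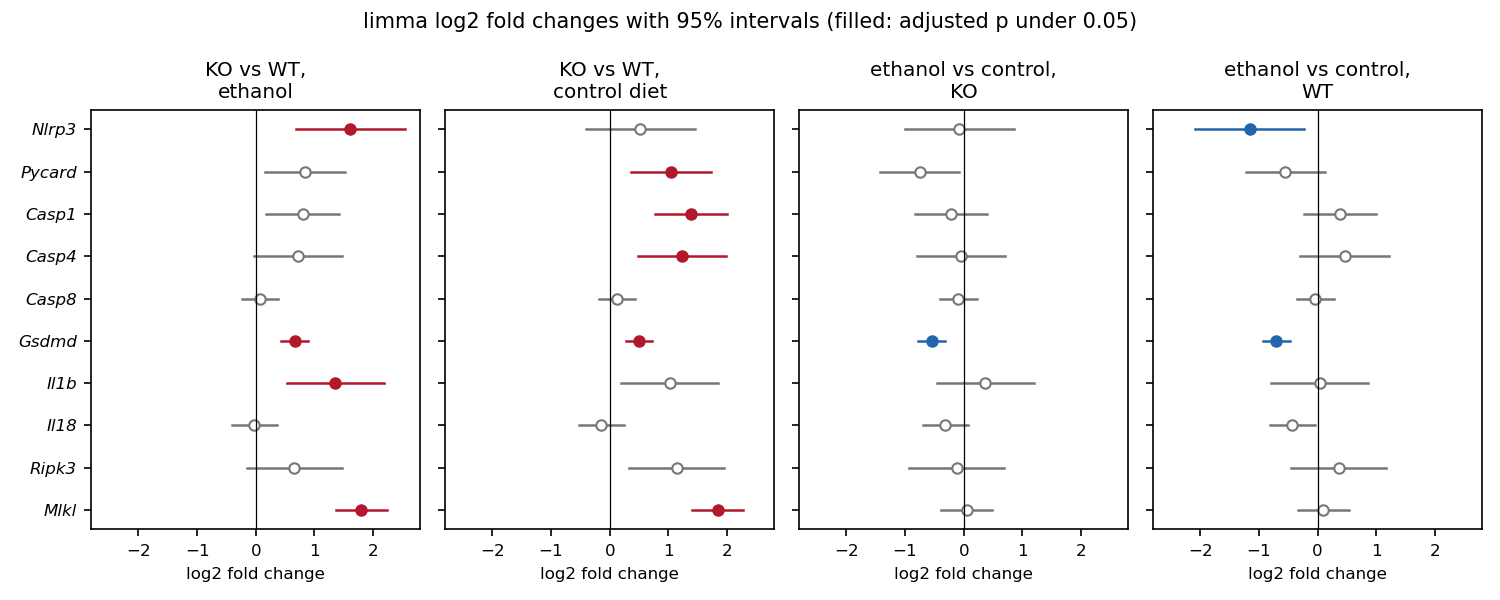
Log2 fold change of the 10 genes with 95% intervals from limma, for genotype on ethanol, genotype on control diet, ethanol in KO-labelled livers and ethanol in WT livers, filled where called. Mlkl has the largest called genotype difference on both diets, 1.80 on ethanol and 1.84 on control diet, and Gsdmd is called in all 4 comparisons.

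Gsdmd was lower with ethanol in both genotypes, and Nlrp3 was the only other gene of the set called for ethanol. In KO-labelled livers 0 of the 10 genes were called higher with ethanol and 1 was called lower, where 10.2% of all tested genes were called higher and 9.01% lower. In WT livers 0 were called higher and 2 lower, namely Gsdmd and Nlrp3, where 18.9% of all genes were called higher and 19.0% lower. The median log2 change of the 10 genes was -0.10 with ethanol in KO-labelled livers and -0.00 in WT livers, beside -0.01 over all genes in both. The 1 and 2 genes called lower are near these shares of all genes. The ethanol and genotype comparisons share libraries, so their values for a gene are not independent of each other.
With ethanol Gsdmd was 0.687 of its control-diet level in KO-labelled livers (log2 -0.54 ± 0.11 SE, limma adjusted p = 0.00273) and 0.613 in WT livers (log2 -0.71 ± 0.11 SE, limma adjusted p = 0.000115). Nlrp3 was 0.447 of its control-diet level in WT livers (log2 -1.16 ± 0.44 SE, limma adjusted p = 0.0465). That Nlrp3 call was lost in 10 of 19 alternatives, among them edgeR (adjusted p = 0.0633), DESeq2 (adjusted p = 0.0677) and leaving out WT ethanol library 1 or 2 (adjusted p = 0.154 and 0.0801) or WT control library 1, 2 or 3 (adjusted p = 0.0904, 0.127 and 0.0659). In KO-labelled livers the Nlrp3 fold with ethanol was 0.950, with a 95% interval from 0.499 to 1.81.

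Every Il18 value of WT livers on ethanol lay below every value of WT livers on control diet, as did those of Gsdmd, where 17.4% of all genes did so. The Il18 fold was 0.741 with a 95% interval from 0.567 to 0.968, not called (limma adjusted p = 0.0714), and it passed with the replicate number as a block (adjusted p = 0.0241). Gsdmd was the gene whose KO ethanol values all lay below the KO control values, where 11.3% of all genes did so. Mlkl had a fold of 1.04 with ethanol in KO-labelled livers, with a 95% interval from 0.767 to 1.40, and of 1.07 in WT livers, with an interval from 0.792 to 1.45. Casp8 had folds of 0.939 in KO-labelled livers and 0.974 in WT livers. Pycard in KO-labelled livers had a fold of 0.594 with ethanol (limma adjusted p = 0.109), which passed without KO control library 3 (adjusted p = 0.0437).

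The effect of ethanol was not called different between the genotypes for any of the genes. Limma called 0 of 10 for the difference of the ethanol effects, edgeR and DESeq2 also called 0, and 0 reached an unadjusted p under 0.05, where 0.143% of all genes were called higher and 0.204% lower. The largest estimate was that of Nlrp3, a log2 difference of 1.09 ± 0.62 (SE, limma adjusted p = 0.469), with a fold interval from 0.855 to 5.28. For Gsdmd the difference was 0.16 ± 0.15 (SE, limma adjusted p = 0.674), so the genotypes were not shown to differ in how far ethanol lowered it.

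Most markers of liver macrophages moved in the same direction as most of these genes between the genotypes. Of 13 Kupffer cell and macrophage markers, which include Clec4f, Vsig4, Adgre1 and Cd163, 12 were called higher and 0 lower in KO-labelled livers on ethanol, and 8 higher and 1 lower on control diet. Of all tested genes 6.13% were called higher and 3.75% lower on ethanol, and 6.40% and 5.24% on control diet. Cd163 ran the other way on ethanol, with a mean of 33.7 reads in KO-labelled livers and 124 in WT livers. The summed normalised reads of the 13 markers ran from 5894 to 7593 in KO-labelled livers on ethanol, against 1178 to 1891 in WT livers on ethanol. On control diet the sums ran from 7066 to 11291 in KO-labelled livers, against 3002 to 6847 in WT livers. With ethanol 0 of the 13 were called higher and 2 lower in KO-labelled livers, beside 10.2% and 9.01% of all genes. In WT livers 0 were called higher and 10 lower, beside 18.9% and 19.0% of all genes. In bulk liver, more cells of a type and more RNA per cell cannot be told apart, and the markers' part in these results was not tested.
WT control library 2 held 6847 macrophage reads, close to the 7066 of the lowest KO control library, and the other WT control libraries held 3387 or fewer. Its Mlkl, at 60.6 reads, lay among the other WT control libraries. It was the highest WT control library for 7 of the 10 genes, with 13.9 reads of Nlrp3, 26.8 of Casp1, 18.9 of Ripk3, 11.9 of Il1b, 157 of Il18, 442 of Casp8 and 475 of Gsdmd, the last beside 473 in the next library. Pycard, Casp4 and Mlkl were highest in other WT control libraries. The share of all genes highest in that library was not counted, and a link to its macrophage reads was not tested. Without WT control library 2 the control-diet log2 difference was 1.78 for Mlkl (limma adjusted p = 8.49e-05) and 0.51 for Gsdmd (limma adjusted p = 0.0134). The control-diet call of Casp1 also held without it. Those of Pycard and Casp4 were lost (limma adjusted p = 0.0673 and 0.0624), at log2 differences of 1.08 and 1.23, beside 1.04 and 1.23 with all libraries. Ripk3 passed (limma adjusted p = 0.00614).

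**Figure D4:**
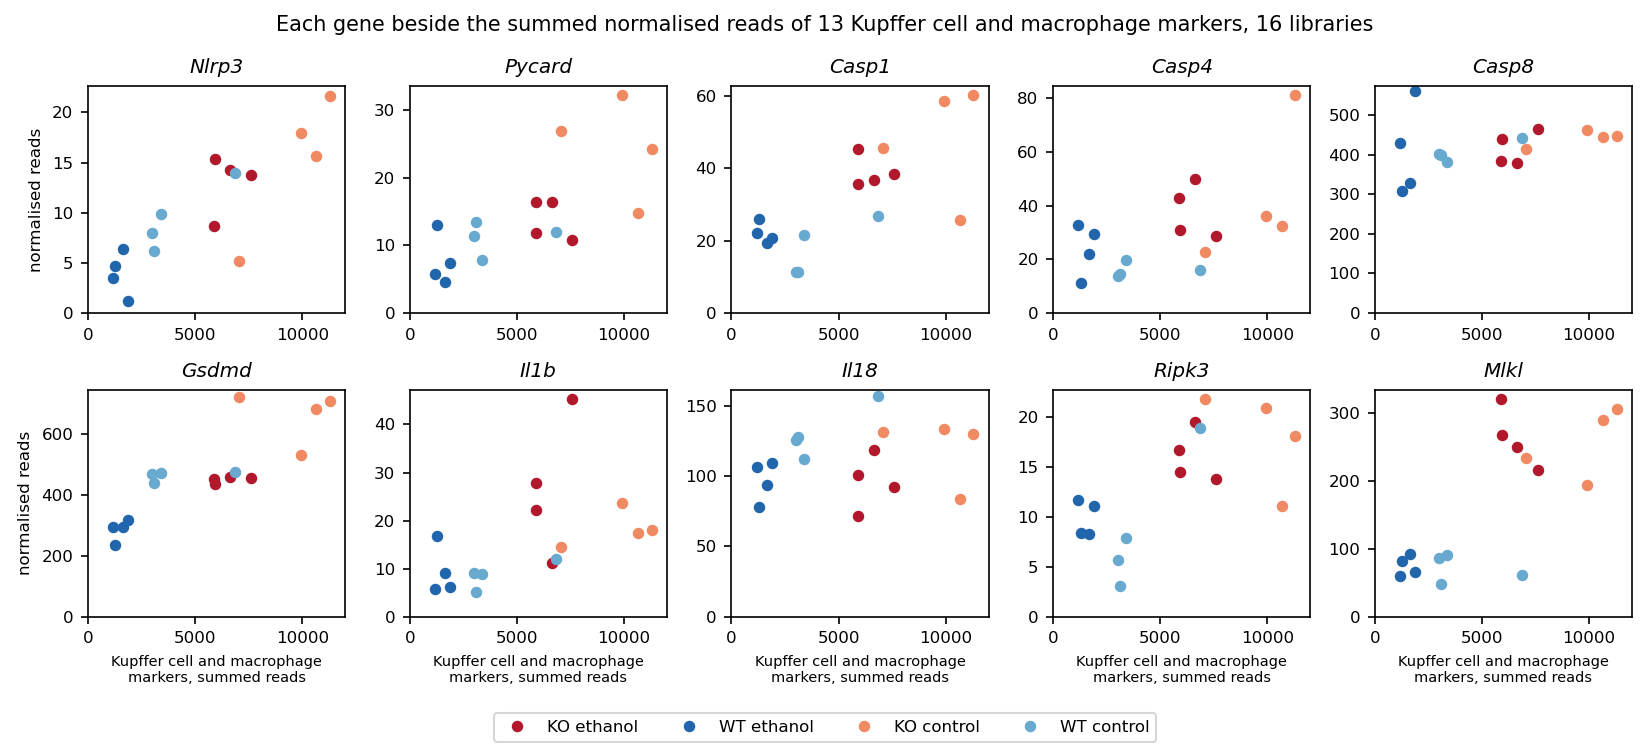
Normalised reads of the 10 genes (vertical axes, 1 panel per gene) against the summed reads of 13 Kupffer cell and macrophage markers (horizontal axis) in the 16 libraries, coloured by group. WT control library 2, at 6847 marker reads, has 60.6 reads of Mlkl.

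Markers of other immune cells summed to fewer reads. Of 9 markers of monocyte-derived cells 7 could be tested, and 6 were called higher and 0 lower in KO-labelled livers on ethanol and 4 higher and 0 lower on control diet. Of all genes 6.13% and 6.40% were called higher on these diets. The sum of the 9 markers ran from 508 to 765 reads in KO-labelled livers on ethanol and from 239 to 499.9 in WT livers on ethanol. On control diet it ran from 394 to 1031 reads in KO-labelled livers and from 458 to 614 in WT livers, and KO control library 3 lay below every WT control library. Spp1, which is also on a list of bile duct cell markers, reached 843 whole reads, and no other gene of the monocyte-derived list exceeded 78. The sum therefore rests mainly on Spp1 and is not a measure of monocyte-derived cells alone. Of 8 neutrophil markers 3 could be tested and 0 were called for genotype on either diet, while the defining markers Ly6g and Mpo had no read in 13 of the 16 libraries each. The neutrophil sum was 36.6 to 131 reads in KO-labelled livers on ethanol and 28.8 to 122 in WT livers on ethanol, and KO ethanol library 1, the highest of its group, was also the highest for Il1b. T and NK cell markers summed to 49.1 to 67.3 reads in KO-labelled livers on ethanol and 17.5 to 22.1 in WT livers on ethanol. Their part in the results was not tested.
Interferon-stimulated genes were higher too. Of a list of 20, chosen with earlier results of these data known, 20 were called higher and 0 lower in KO-labelled livers on ethanol and 19 higher and 0 lower on control diet. Of all genes 6.13% and 6.40% were called higher on these diets.

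The wider pathway was examined in 5 lists of 76 genes, of which 62 were tested. In KO-labelled livers 13 of the 62 were called higher and 1 lower on ethanol, and 13 higher and 3 lower on control diet, beside the 6.13% and 6.40% of all genes called higher. With ethanol, 4 were higher and 10 lower in KO-labelled livers, beside 10.2% and 9.01% of all genes. In WT livers 14 were higher and 17 lower with ethanol, beside 18.9% and 19.0% of all genes. Among the priming genes and regulators of inflammasomes, 6 of 14 were called higher in KO-labelled livers on ethanol and 7 on control diet, of which 6 were the same genes.
Gbp3, an interferon-inducible guanylate-binding protein, had 399, 332, 612 and 384 reads in KO-labelled livers on ethanol, against 34.4, 10.5, 28.8 and 33.0 in WT livers on ethanol, a 16.6-fold difference (limma adjusted p = 1.21e-07). Gbp2, of the same family, which in mouse macrophages helps caspase-11 reach bacteria, was 2.79-fold higher on ethanol and 3.11-fold higher on control diet (limma adjusted p = 6.59e-05 and 2.79e-05). Gm12250, an interferon-inducible GTPase, was 8.92-fold and 10.8-fold higher (limma adjusted p = 4.31e-05 and 2.13e-05). Trim30a was 5.81-fold higher on ethanol and 6.34-fold on control diet (limma adjusted p = 1.43e-08 and 1.47e-08). No group overlapped between the genotypes for these 4 genes.

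Among other sensors, 7 of 12 were tested, of which 3 were called higher and 1 lower in KO-labelled livers on ethanol, and 1 higher and 1 lower on control diet. The shares of all genes called higher and lower were 6.13% and 3.75% on ethanol, and 6.40% and 5.24% on control diet. Naip5, which recognises bacterial flagellin in mice, had 34.4, 51.1, 35.6 and 29.8 reads in KO-labelled livers on ethanol, against 20.9, 8.16, 13 and 16.5 in WT livers on ethanol (2.55-fold, limma adjusted p = 0.00822), and was 2.13-fold higher on control diet (limma adjusted p = 0.0273). With the replicate number as a block in the ethanol groups the ethanol call of Naip5 was lost (adjusted p = 0.0501), and the control-diet call was lost without KO control library 2, 3 or 4 or WT control library 1, 3 or 4 (adjusted p = 0.0526 to 0.0841). Similar copies within the Naip, Gbp and Trim30 families make their counts uncertain.
Aim2, a sensor of cytosolic DNA, was 2.75-fold higher on ethanol (limma adjusted p = 0.0131, and 0.0754 with the block in the ethanol groups), and Naip2 was 1.84-fold higher (limma adjusted p = 0.0299), a call lost without any 1 of the KO ethanol libraries or WT ethanol library 1 or 2 (adjusted p = 0.0552 to 0.0889), and without KO ethanol libraries 1 and 4 together (adjusted p = 0.121). Nlrp6, a sensor best known from intestinal epithelium, ran the other way. It had 1006, 1054, 953 and 1003 reads in KO-labelled livers on ethanol, against 1355, 1257, 1509 and 1197 in WT livers on ethanol, a fold of 0.758 (limma adjusted p = 0.0119, and 0.0943 without KO ethanol libraries 1 and 4), and a fold of 0.769 on control diet (limma adjusted p = 0.0159), lost without WT control library 3 or 4 (adjusted p = 0.0516 and 0.0579). With ethanol Nlrp6 was 0.481 of its control-diet level in KO-labelled livers and 0.489 in WT livers (limma adjusted p = 3.62e-06 and 9.17e-07), whereas Nlrp12 was 4.41-fold and 4.93-fold higher (limma adjusted p = 0.000294 and 4.27e-05). Nlrc4, the partner of the NAIP proteins, fell to 0.530 of its control-diet level with ethanol in WT livers (limma adjusted p = 0.0463), a call lost without WT ethanol library 1 or 3 or WT control library 1, 2 or 4 (adjusted p = 0.0816 to 0.14), with edgeR (adjusted p = 0.0518) and with DESeq2 (adjusted p = 0.0775).

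Genes of death receptor signalling and necroptosis control numbered 29, of which 26 were tested. In KO-labelled livers 3 were called higher and 0 lower on ethanol, beside 6.13% and 3.75% of all genes. On control diet 4 were called higher and 1 lower, beside 6.40% and 5.24% of all genes. Zbp1, the nucleic acid sensor that can engage RIPK3, had 421, 199, 438 and 352 reads in KO-labelled livers on ethanol, against 60.2, 48.9, 26.9 and 45.8 in WT livers on ethanol, 7.57-fold higher (limma adjusted p = 1.45e-06). On control diet Zbp1 had 519, 387, 349 and 480.0 reads in KO-labelled livers, against 58.2, 110.3, 68.1 and 58.1 in WT livers, 5.96-fold higher (limma adjusted p = 8.7e-06). The genotypes did not overlap on either diet, and WT control library 2 was the highest WT value.
Tlr3, the receptor for double-stranded RNA, was 1.96-fold higher on ethanol and 1.68-fold higher on control diet (limma adjusted p = 0.00168 and 0.0115), and its ethanol call was lost without KO ethanol libraries 1 and 4 (adjusted p = 0.0575). Rnf31, a subunit of the linear ubiquitin ligase, was 1.30-fold higher on ethanol and 1.48-fold higher on control diet (limma adjusted p = 0.0324 and 0.00219), the ethanol call being lost without KO ethanol library 1, 3 or 4 or WT ethanol library 1 or 4 (adjusted p = 0.0569 to 0.114), without KO ethanol libraries 1 and 4 together (adjusted p = 0.192) and with the block in the ethanol groups (adjusted p = 0.0817). Tnfaip3, the ubiquitin-editing inhibitor A20, was 2.18-fold higher on control diet (limma adjusted p = 0.00263).
With ethanol, 1 gene of this list was called higher and 6 lower in KO-labelled livers, and 4 higher and 10 lower in WT livers, where the shares of all genes were 10.2% and 9.01% in KO-labelled livers and 18.9% and 19.0% in WT livers. Birc3, an inhibitor of apoptosis, was 0.628 of its control-diet level in KO-labelled livers and 0.562 in WT livers (limma adjusted p = 0.000359 and 1.52e-05). Cflar, the caspase-8 regulator cFLIP, was at 0.782 and 0.618 (limma adjusted p = 0.019 and 5.85e-05), and the call in KO-labelled livers was lost without KO ethanol library 4 or KO control library 2 (adjusted p = 0.0624 and 0.0715), and without KO ethanol libraries 1 and 4 together (adjusted p = 0.096).

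In the interleukin-1 family list 11 of 15 genes were tested. For genotype 1 was called higher and 0 lower on ethanol, beside 6.13% and 3.75% of all genes. On control diet 1 was called higher and 1 lower, beside 6.40% and 5.24% of all genes. These counts are near the shares of all genes. The gene higher on both diets was Il18bp, the secreted protein that neutralises interleukin-18. It had 196, 177, 193 and 205 reads in KO-labelled livers on ethanol, against 102, 81.6, 80.8 and 86.2 in WT livers on ethanol (2.19-fold, limma adjusted p = 7.02e-05). On control diet Il18bp had 221, 228, 279.9 and 262 reads in KO-labelled livers, against 89.7, 144, 93.0 and 88.2 in WT livers (2.41-fold, limma adjusted p = 2.52e-05). The genotypes did not overlap on either diet, while the groups of Il18 itself overlapped. Il1rap, the shared chain of the interleukin-1 receptors, was at 0.709 of the WT level on control diet (limma adjusted p = 0.0134), a call lost without WT control library 4 (adjusted p = 0.0521).
With ethanol 2 genes of this list were called higher and 0 lower in KO-labelled livers, beside 10.2% and 9.01% of all genes. In WT livers 5 were called higher and 1 lower, beside 18.9% and 19.0% of all genes. Il1rn, the receptor antagonist, was 2.75-fold higher in KO-labelled livers and 4.91-fold higher in WT livers (limma adjusted p = 0.0149 and 0.000267), the first call being lost without KO ethanol libraries 1 and 4 (adjusted p = 0.138). Irak2, a kinase of the same receptors, was 1.53-fold higher in KO-labelled livers and 2.31-fold higher in WT livers (limma adjusted p = 0.0339 and 0.000148). Its call in KO-labelled livers was lost without KO ethanol library 1, 2 or 4 or KO control library 1 or 2 (adjusted p = 0.0558 to 0.106), and without KO ethanol libraries 1 and 4 together (adjusted p = 0.218). Myd88, the adaptor they share, is on the priming list and was 1.77-fold higher in WT livers (limma adjusted p = 0.00194). Among 4 tested genes of other pores and membrane repair, 0 were called for genotype on either diet.

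**Figure D5:**
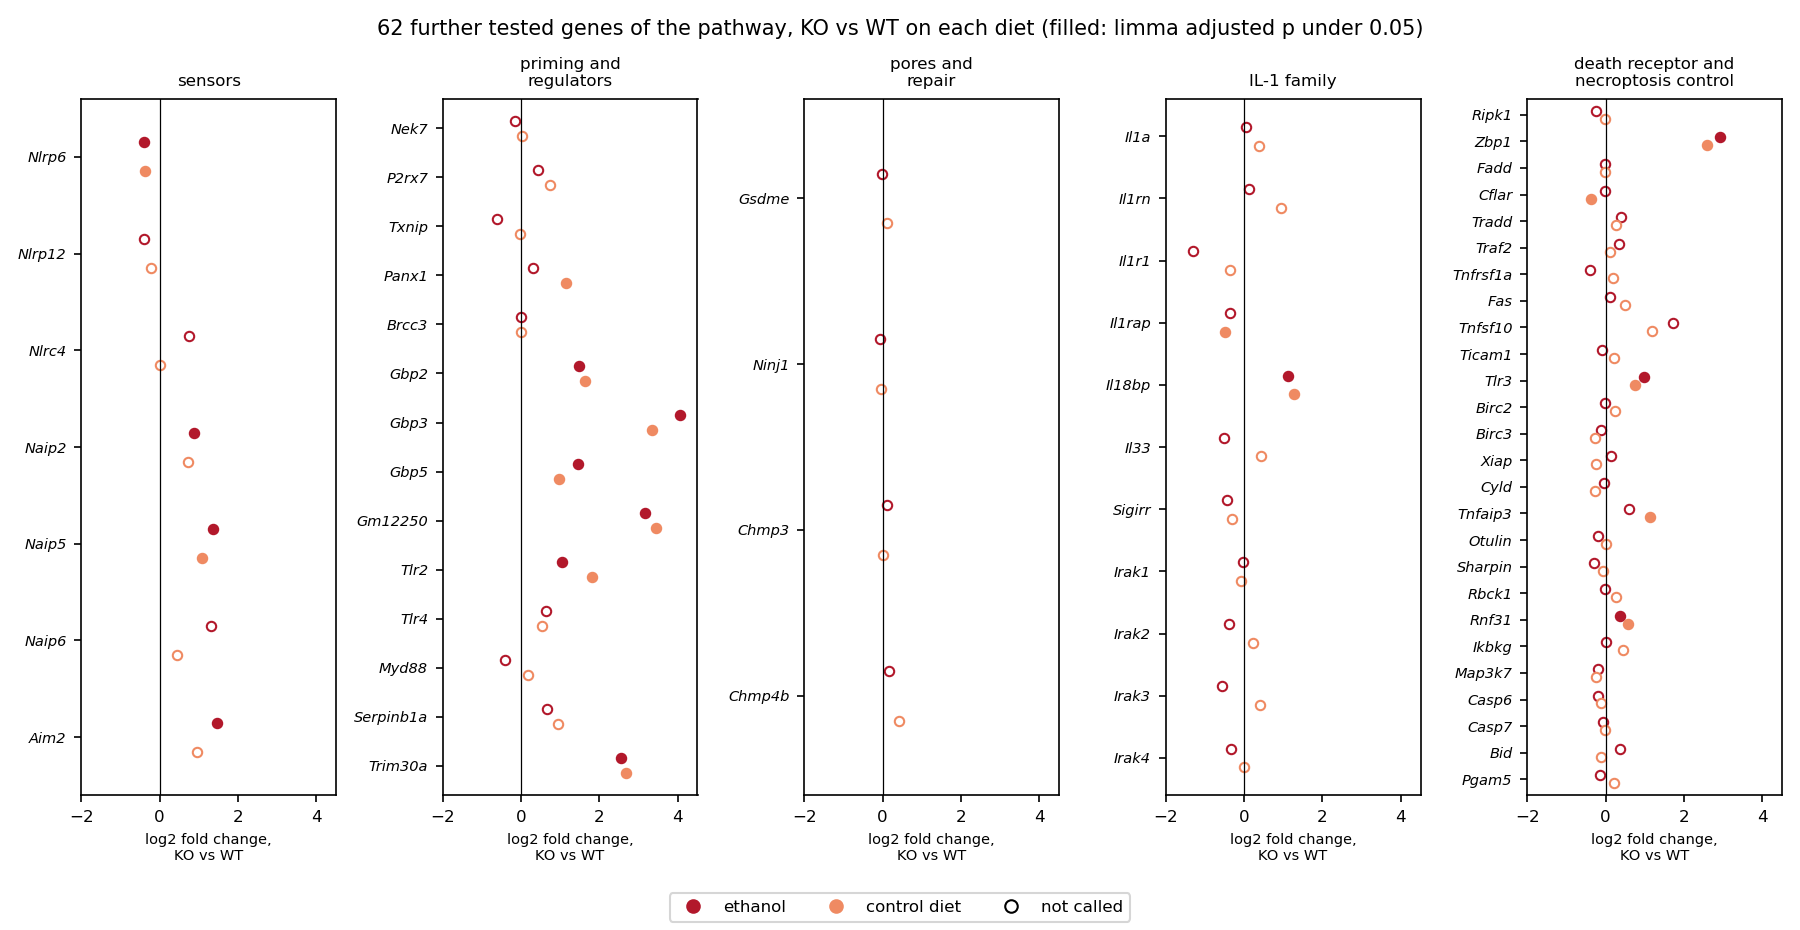
Log2 fold change between KO-labelled and WT livers for the 62 tested genes of the 5 wider lists, on ethanol and on control diet, filled where limma's adjusted p was under 0.05. Gbp3 is highest on ethanol, at 4.06, and Nlrp6 lies below 0 on both diets, at -0.40 and -0.38.

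The tested genes whose profiles over the 16 libraries were nearest to each called gene, by the root mean square difference of centred log2 values, were as follows. For Mlkl they were Lgals3bp at 0.36, H2-T22 at 0.37 and Samd9l at 0.38 (the root mean square of Mlkl around its own mean was 0.95). For Gsdmd they were C2, which encodes a complement protein, at 0.16, Trafd1 at 0.19 and Lgals9 at 0.20. For Casp1 they were Incenp and Cotl1, both at 0.32, and Ripk3 at 0.33. For Nlrp3 they were Itgb2, an integrin of leukocytes, at 0.37, Myo9a at 0.39 and Wdfy4 at 0.39. The nearest genes were Gm6548 for Pycard at 0.32, Ppp1r18 for Casp4 at 0.40 and Gbp4 for Il1b at 0.38. A likeness of this kind is a description of these 16 libraries.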

How the data were processed

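RNA was sequenced as single reads of 75 bases from 16 liver libraries, 4 in each of 4 groups taken from the labels. The authors deposited a table of signal per gene and library, read counts divided by 1 size factor per library. Per the submitters' processing notes, the tools were HISAT2 2.1.0.13, HTSeq and edgeR, on build GRCm38. The strand setting and annotation release were not given in the sources used here, so antisense reads cannot be told from those of the gene. The deposited values were whole multiples of 1 step per library, and after division by it 100% were within 0.01 of a whole number, which recovered the reads (size factors 0.81 to 1.26, depth 11425136 to 13864862 reads). GENCODE symbols on GRCm38 were found for 27242 of the 27288 identifiers, and 46 had none. No pair of libraries within a group held the same values or agreed within sampling noise (mean chi-square per gene 11.1 to 121).

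The tests were from limma 3.58.1 (R 4.3.3), fitted once to log2(value + 1) of all 16 libraries with 4 group means and a trend. A mean of at least 10 was asked of a gene, which left 13256, and the threshold was an adjusted p of 0.05 (Benjamini-Hochberg, all tested genes). The 10 genes, the wider lists and the alternatives were chosen with earlier results of these data known, so no pattern here is independent support of those results. All 10 genes were named in each comparison, and each wider list gave up to 4 genes with the smallest genotype p and up to 3 with the smallest ethanol p among called genes, of which not all are printed. A gene of these lists is not reported here, and the counts are without it. The genes nearest in profile were the 3 with the smallest root mean square difference. Same-numbered libraries of the ethanol groups deviated together in all 4 pairs (correlation of deviations from the group means across genes, 0.102 to 0.246). By the rule used the numbers were taken as pairs, from the data alone, but only in the fits with a block. The main fit has no block, so the main calls do not use the pairs. Some libraries with different numbers correlated in the same range (KO 2 with WT 1, 0.176, KO 3 with WT 4, 0.199, KO 4 with WT 3, 0.179), so what is shared cannot be told apart from a split of libraries 1 and 2 against 3 and 4. In the other comparisons no pair was above 0.1. The settings varied were the pseudocount (0.25 and 4), the filter (none, or a mean of 50), the trend (none), the libraries fitted (the compared groups alone), TMM factors, replicate blocks, each library left out, subsets of the ethanol libraries, and edgeR 4.0.16 and DESeq2 1.42.0 on recovered reads. The block within the ethanol groups was chosen after seeing the data. The limma functions were tested on simulated data.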

Additional observations from a re-analysis of the deposited data

Results flagged for a closer look

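In 6 of 144 sets of a named gene and a group, 1 of the 4 libraries lay far from the other 3 (Dixon's criterion at 95%), which is 4.17% of the sets, where chance gives about 1 in 20. Among the 10 core genes, Il18 had 83.8 normalised reads in KO control library 3, where the others of that group had 129.7 or more, and Gsdmd had 438 in WT control library 4, where the others had 471 to 475. KO control library 3 was also high for Nlrp12, at 894 reads, where the others had 263 to 298. WT control library 2, the WT control library with the most macrophage marker reads, was high for Il18bp, at 144 reads, where the others had 88.2 to 93.0, and for Tnfaip3, at 43.7, where the others had 35.3 to 36.5. Il1rap had 1748 reads in KO control library 4, where the others had 1995 to 2023.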

How the results depend on the processing

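None of the 36 genes run through the alternatives, the 10 core genes among them, changed the sign of a called difference. Other genes named here, such as cell markers and genes near in profile, were not run through them. Mlkl and Gsdmd kept all their calls in every alternative run, and Casp1 kept its control-diet call. The number of the 10 genes called for genotype on ethanol, 4 of 10, was 2 with a floor of 50 (which leaves 4 of the genes to test), with the replicate number as a block in the ethanol groups, without KO ethanol libraries 1 and 4, and with ethanol libraries 3 and 4 only. It was 2 to 5 when 1 library was left out. On control diet the number called, 5, was 3 with no filter, 2 with the floor of 50, and 3 to 6 when 1 library was left out. For ethanol in KO-labelled livers 1 was called, and 1 to 2 when 1 library was left out. For ethanol in WT livers 2 were called, and 1 with a pseudocount of 4, with no filter, with the floor of 50, with edgeR and with DESeq2, and 1 to 2 when 1 library was left out. The difference of the ethanol effects gave 0 in every alternative. Apart from the floor, which removes genes, the cause of these changes was not tested. With the replicate number as a block in the fit of all 16 libraries, which pairs same-numbered libraries, the numbers called were 3, 5, 1 and 3 for genotype on ethanol, genotype on control diet, ethanol in KO-labelled livers and ethanol in WT livers, and 0 for the difference. The fit of the ethanol groups alone with that block did not call Nlrp3 (adjusted p = 0.0671) or Il1b (adjusted p = 0.0724). The fit of the same groups without a block did not call them either (adjusted p = 0.0521 and 0.102), so these losses cannot be put down to the block. TMM factors moved the median of all genes by less than 0.1 on the log2 scale. Nlrp3, Pycard, Ripk3 and Il1b had 1, 5, 3 and 5 reads in their lowest libraries, and the part of depth in their calls was not tested.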

Other observations

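Il1r1, the signalling receptor for interleukin-1, was chosen here after its values were seen. It had 1998, 3686, 683 and 861 normalised reads in KO-labelled livers on ethanol, against 12860, 10787, 660.5 and 1703 in WT livers on ethanol. Ethanol libraries 1 and 2 were the high ones in both genotypes, and WT library 3 lay among the control values. With ethanol it was 5.27-fold higher in WT livers (log2 2.40 ± 0.74 SE, limma adjusted p = 0.0177), a call lost without WT ethanol library 1 (adjusted p = 0.0686) or 2 (adjusted p = 0.0669). The log2 difference was 1.78 without library 1, 3.20 without library 3, 4.13 with ethanol libraries 1 and 2 only, and 0.66 with libraries 3 and 4 only (limma adjusted p = 0.269). In KO-labelled livers the fold was 2.77 (limma adjusted p = 0.174), and the difference of the ethanol effects was not called (limma adjusted p = 0.737).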
